A study of Mus musculus with 16 samples.

Results

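Epididymal white adipose tissue (eWAT) of mice fed an Artemisia scoparia extract was compared with eWAT of mice fed the same diet without it. The comparison took every eWAT array of the study, 4 scoparia and 4 control, which are 8 of its 16 arrays, and all genes measured on them. The other 8 arrays came from inguinal fat (iWAT), a subcutaneous depot, under the same diets. Illumina bead arrays were used, on which a probe's light intensity stands for the abundance of its transcript in total RNA.

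All mice were obese males of the inbred strain C57BL/6J, housed 1 to a cage, and no group carried a transgene or a deletion. Both groups ate D12492, a purified diet with 60% of its energy as fat, for 4 weeks from 17 to 21 weeks of age. The scoparia group (4 arrays, animal numbers 16, 17, 18 and 20 in the array names) received that diet with 1% by weight of an ethanolic extract of the plant, and the control group (4 arrays, animal numbers 1 to 4) received it unsupplemented. There was no lean group, so every value below is a value in obesity. Each array had its own animal number within the depot, but the labels do not say whether tissue was pooled or split, and a p value here reflects only how far these arrays spread.

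Epididymal fat is the large visceral fat pad of male mice. In obesity its adipocytes enlarge, macrophages gather around dying adipocytes, and the response of the tissue to insulin declines. The bulk tissue also holds endothelial cells, fibroblast-like progenitors, mast cells and the mesothelium that covers the pad. In bulk samples, fewer cells of a type and less RNA per cell cannot be told apart.

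The tissue label was checked first. All 25 genes of an adipocyte identity list were detected on eWAT arrays, and the adipocyte hormone Adipoq lay between 14.09 and 14.73 on the log2 scale on the 8 arrays. Of 18 epididymis and testis markers with a probe, 5 were detected on any eWAT array, and 2 passed the filter on dim probes. Their summed intensity was 54.3 to 74.7 on control arrays and 43.9 to 61.7 on scoparia arrays.

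Control array 2 stood apart from the other 7 eWAT arrays. On the first principal component of the 11050 genes, which held 55.8% of the variance, it lay at -61.4, whereas the others lay between -14.8 and 21.9. Its mean correlation with its own group was 0.955, against 0.965 to 0.979 for the other control arrays and 0.988 to 0.990 for the scoparia arrays. It had the highest of the 8 values for 28.9% of genes and the lowest for 31.8%. The SD between arrays was larger in control than in scoparia for 76.1% of genes, with medians of 0.29 and 0.17, and the control median was 0.22 without array 2. What sets it apart was not tested, and results that rest on it are given with and without it. The share of probes detected was 53.6% to 56.0% on control arrays and 52.4% to 54.2% on scoparia arrays, with a mean difference of -1.47 points (two-sided exact permutation test, p = 0.114, smallest possible 0.0286). The median scanner signal differed by 4.5 units (exact two-sided permutation p = 0.686).

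**Figure D1:**
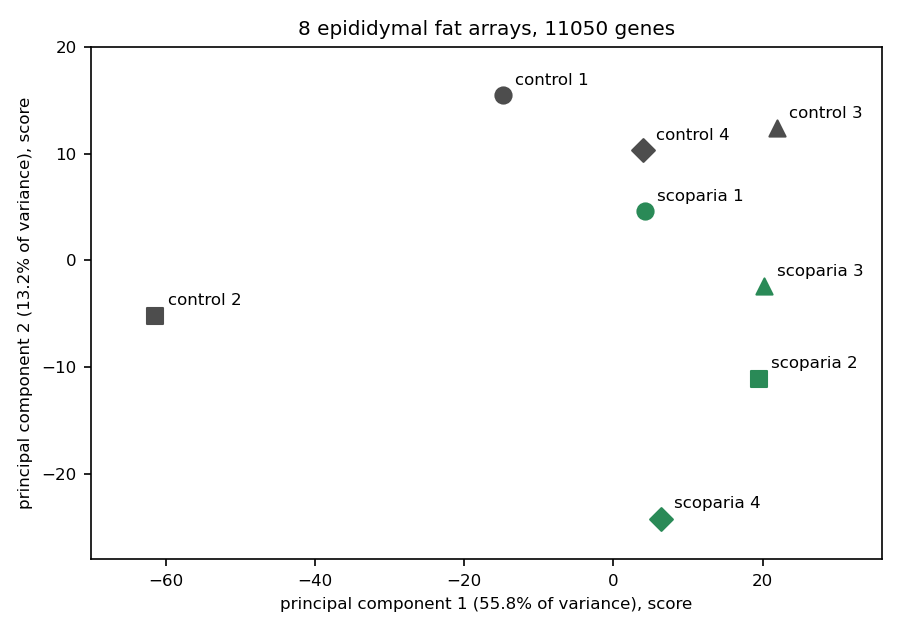
Scores of the 8 eWAT arrays on the first (x axis) and second (y axis) principal components of 11050 genes, in grey for control and green for scoparia, with 1 marker shape per array number. Control array 2 lies at -61.4 on the first component, and the other 7 arrays lie between -14.8 and 21.9.

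Which genes differ with the extract in epididymal fat was asked with 1 limma fit over all 16 arrays, in which the 4 combinations of depot and diet share an estimate of the spread. No gene passed an adjusted p of 0.05 (0 of 11050, 0%, smallest adjusted p = 0.22). At an unadjusted p under 0.05 stood 654 genes (5.92%), of which 297 were higher in scoparia (2.69%) and 357 lower (3.23%). With arrays scaled to equal medians instead of quantiles the split was 418 higher and 301 lower. The 4 scoparia values lay wholly above or wholly below the 4 control values for 568 genes (5.14%), 301 above (2.72%) and 267 below (2.42%). Both held for 272 genes. With the 8 eWAT arrays alone no gene passed either (0 of 11050, smallest adjusted p = 0.274), and 1014 stood at an unadjusted p under 0.05 (9.18%; 4.41% higher and 4.77% lower). In the 16-array fit the unadjusted count was 393 without control array 2 (3.56%; 1.54% higher and 2.02% lower). In the fit of the 8 eWAT arrays it was 854 without that array (408 higher and 446 lower). The genes named below are thus those with the smallest unadjusted p, given as values and not as changes. Differences are log2 scoparia minus control ± SE from the 16-array fit. Their median over all genes was 0.03, the median SE was 0.23, and 72 genes lay below -1 against 14 above 1. Of all genes 55.9% lay above 0 in eWAT, which is the background for the eWAT counts above 0 given for gene lists below. In iWAT 5042 of the 11050 genes lay above 0, with a median of -0.06. As each eWAT array was left out in turn, 170 to 672 of all genes stood at an unadjusted p under 0.05 and higher, and 223 to 561 lower. Counts of list members without 1 array have these as their background.

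The smallest p of all belonged to the clone gene 2410005O16RIK (-0.82 ± 0.14, unadjusted p = 2.91e-05, adjusted p = 0.22). The next was Pdia4, a protein disulfide isomerase that forms and reshuffles disulfide bonds of proteins folding in the endoplasmic reticulum (ER). Its log2 intensity was 11.29, 11.36, 10.85 and 10.62 on control arrays 1 to 4 and 10.28, 9.51, 9.39 and 8.97 on scoparia arrays 1 to 4. The groups did not overlap, and scoparia array 1 lay closest to the controls. The difference was -1.49 ± 0.28, 2.81-fold lower (unadjusted p = 5.76e-05, adjusted p = 0.22), and it was -1.38 without control array 2.

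Calr and Creld2, a lectin chaperone that retains immature glycoproteins and a secreted protein induced by ER stress, also had lower values without overlap. Calr read 10.17, 9.73, 9.81 and 9.74 on control and 9.64, 9.28, 9.27 and 8.50 on scoparia arrays, a difference of -0.69 ± 0.26 (unadjusted p = 0.018, adjusted p = 0.673). Creld2 read 10.12, 9.98, 10.27 and 10.12 on control and 9.48, 9.50, 9.68 and 9.57 on scoparia arrays, a difference of -0.57 ± 0.21 (unadjusted p = 0.0159, adjusted p = 0.659). In both genes the 4 scoparia values lay below every control value, by as little as 0.09 for Calr and 0.30 for Creld2. Calr and Creld2 also lay lower in iWAT, at -0.53 and -0.49, and Pdia4 there at -0.27.

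The chaperone list as a whole had 24 genes, of which 21 had a probe and 16 were tested. Of these 5 lay above 0 and 11 below, 3 stood at an unadjusted p under 0.05 and lower (against 3.23% of all genes) and 0 higher, and the median was -0.06 against 0.03 over all genes. Of the 13 genes other than Pdia4, Calr and Creld2, 8 lay below 0 and none stood at an unadjusted p under 0.05. With arrays scaled to equal medians the list median was 0.02 and 1 gene stood lower. Hspa5, the main Hsp70 chaperone of the ER, read 9.10, 8.75, 9.42 and 9.33 on control and 9.24, 9.19, 8.99 and 9.09 on scoparia arrays. These values overlapped throughout, with a difference of -0.02 ± 0.21, and median scaling of the arrays turned its sign (0.04). A list of 18 tested genes of the unfolded protein response and ER-associated degradation had 10 above 0, 1 higher (against 2.69% of all genes), 0 lower and a median of 0.01. The higher one was Trib3, a stress-induced pseudokinase (0.59 ± 0.27, unadjusted p = 0.0402). Its groups did not overlap, but by only 0.01, and its other probe had the opposite sign.

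Many ER chaperone genes carry in their promoters the ER stress response element, which is bound by NF-Y and ATF6 and reads CCAAT, 9 free bases and CCACG. It was searched on both strands in the 300 bases around the transcription start, most of them before it, of 32851 RefSeq promoters of GRCm38.p6, of which 39 held it (0.119%). Of the 20 chaperone list genes with a promoter in the table, 8 held it (40.0%), and of the 15 tested ones 7 did. A gene was counted if any of its promoters held the element, whereas the share before is one of promoters. The second form, ATTGG, 1 free base and CCACG, which can overlap the first, was in 12 promoters (0.0365%) and in 1 of the 20. The promoters of the 3 genes with lower values and of Hspa5 are shown because the 4 differ in this element and in their values. Capitals mark the match, which for Calr and Creld2 is on the opposite strand, and the Pdia4 window, at chr6:47813463-47813762 (minus strand), holds none. The other windows are chr8:84846882-84847181 (minus) for Calr, chr15:88819396-88819695 (plus) for Creld2 and chr2:34771840-34772139 (plus) for Hspa5.
Pdia4: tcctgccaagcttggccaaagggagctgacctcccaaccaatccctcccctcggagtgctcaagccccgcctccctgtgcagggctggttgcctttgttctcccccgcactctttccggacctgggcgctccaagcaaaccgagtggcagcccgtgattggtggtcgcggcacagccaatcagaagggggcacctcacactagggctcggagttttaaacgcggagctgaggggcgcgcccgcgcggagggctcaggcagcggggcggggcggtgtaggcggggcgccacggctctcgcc
Calr: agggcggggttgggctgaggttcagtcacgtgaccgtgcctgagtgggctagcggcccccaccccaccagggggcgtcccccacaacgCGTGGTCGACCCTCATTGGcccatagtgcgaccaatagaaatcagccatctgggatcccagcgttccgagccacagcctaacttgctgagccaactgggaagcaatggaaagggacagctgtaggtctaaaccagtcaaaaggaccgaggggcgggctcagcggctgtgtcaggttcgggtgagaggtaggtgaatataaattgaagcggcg
Creld2: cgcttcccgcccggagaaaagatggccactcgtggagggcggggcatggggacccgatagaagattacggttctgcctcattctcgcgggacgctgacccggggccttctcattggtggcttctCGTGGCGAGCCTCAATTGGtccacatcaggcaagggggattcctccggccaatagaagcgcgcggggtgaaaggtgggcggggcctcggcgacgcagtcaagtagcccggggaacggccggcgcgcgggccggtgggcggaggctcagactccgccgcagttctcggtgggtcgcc
Hspa5: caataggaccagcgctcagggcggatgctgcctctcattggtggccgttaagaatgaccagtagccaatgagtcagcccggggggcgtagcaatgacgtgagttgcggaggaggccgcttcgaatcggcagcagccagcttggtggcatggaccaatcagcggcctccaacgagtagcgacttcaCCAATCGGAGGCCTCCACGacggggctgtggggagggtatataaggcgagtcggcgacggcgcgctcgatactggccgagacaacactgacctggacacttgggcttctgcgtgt
The element stood in the windows of Calr, Creld2 and Hspa5, of which the last had a difference near 0. A match is a description of these letters, not a bound site.

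Pdpk1, Stat3 and Map3k3, which carry signals from receptors at the cell surface, were among the 12 genes of smallest p with lower values and no overlap. Pdpk1, the kinase that phosphorylates Akt downstream of the insulin receptor, read 8.15, 9.20, 7.88 and 8.29 on control and 7.74, 7.05, 6.76 and 7.25 on scoparia arrays, a difference of -1.18 ± 0.25 (unadjusted p = 0.000261, adjusted p = 0.238). Stat3, a transcription factor activated by interleukin 6 and leptin receptors, read 10.62, 10.55, 9.96 and 10.26 on control and 9.92, 9.16, 9.26 and 8.94 on scoparia arrays, a difference of -1.02 ± 0.23 (adjusted p = 0.252). Its 2 other probes gave -0.85 and -0.12. Map3k3, a kinase upstream of stress-activated kinases, lay at -1.24 ± 0.28. In Stat3 and Map3k3, as in Pdia4 and Pdpk1, scoparia array 1 had the highest scoparia value, and without it Pdia4 (adjusted p = 0.0193) and Stat3 (adjusted p = 0.0462) were among 14 genes that passed limma's test.

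Further genes chosen by p or by size had varied roles, and the lists of translation initiation and vesicle transport genes, given further on, had medians near that of all genes. Eif4b, a cofactor of the RNA helicase that opens messenger RNA for the ribosome, read 7.21, 7.46, 7.21 and 6.91 on control and 6.26, 5.69, 6.17 and 5.98 on scoparia arrays, a difference of -1.17 ± 0.24 (unadjusted p = 0.000156, adjusted p = 0.238). Eef2, which moves the ribosome along the messenger, read 10.18, 10.69, 9.33 and 9.12 against 8.77, 8.45, 8.40 and 7.59, and all 3 of its probes lay below 0 (-1.53, -1.28 and -1.54). Neither gene's groups overlapped, but the gap for Eef2 was 0.35 wide, and control array 2 was the highest in both. Reep3, which shapes ER membranes, lay at -1.25 ± 0.25, Man2a2, a mannosidase that trims glycans in the Golgi, at -1.20 ± 0.26 and Exoc4, a subunit of the exocyst that tethers vesicles, at -1.14 ± 0.26. Man2a2 was detected on 2 of the 4 scoparia arrays.

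The largest lower value without overlap was that of Gsn, gelsolin, which severs actin filaments. It read 10.40, 11.50, 9.80 and 9.51 on control and 9.38, 8.64, 8.41 and 7.92 on scoparia arrays, a difference of -1.72 ± 0.40 (3.29-fold lower, adjusted p = 0.282), and -1.32 without control array 2. Control array 2 was the highest of the 8 and control array 4 came within 0.13 of scoparia array 1. Dpysl3, a cytoskeletal regulator first known from neurons, lay at -1.51 ± 0.43. The phosphatidylinositol transfer protein Pitpnc1 lay at -1.10 ± 0.26, the HMG-box protein Bbx at -0.89 ± 0.21 and the gasdermin family member Gsdmc2 at -0.81 ± 0.18.

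**Figure D2:**
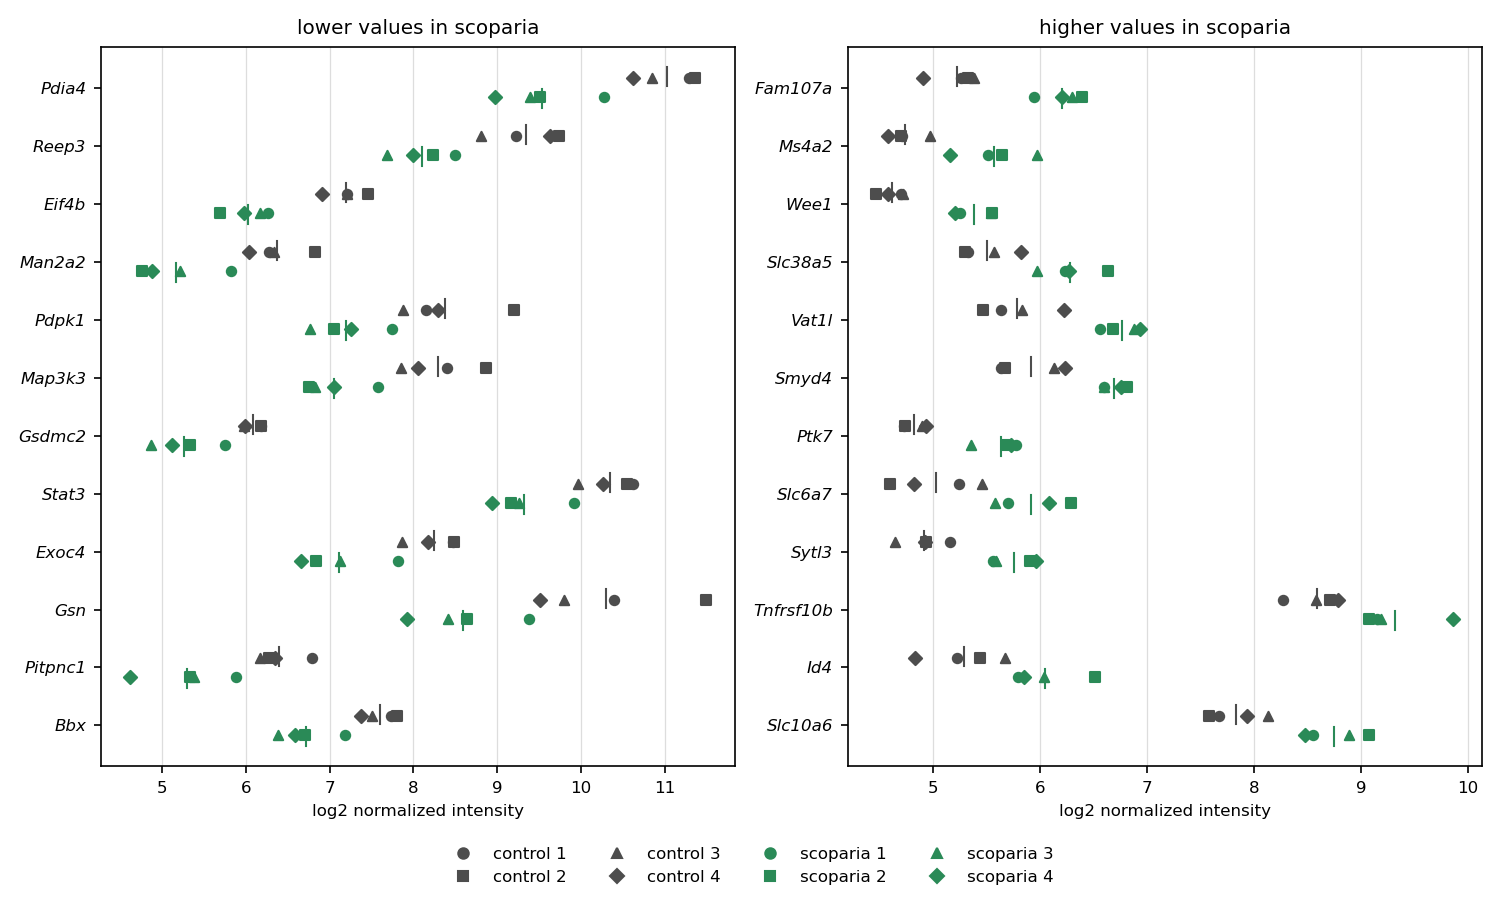
Log2 normalized intensity (x axis) on the 4 control (grey) and 4 scoparia (green) eWAT arrays for the 12 genes with the smallest p and lower values (left) and the 12 with higher values (right), among genes with no clone name whose groups do not overlap; short vertical bars are group means. Scoparia array 1 lies nearest the controls for Pdia4, Pdpk1, Stat3 and Map3k3, and no gene passed an adjusted p of 0.05.

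Among genes with higher values, the smallest p was that of Fam107a, an actin-associated protein known as a stress and glucocorticoid target in brain. It read 5.26, 5.33, 5.38 and 4.91 on control and 5.94, 6.39, 6.30 and 6.20 on scoparia arrays, a difference of 0.99 ± 0.19 (1.98-fold, unadjusted p = 9.64e-05, adjusted p = 0.22). The groups were 0.56 apart, and 1 of the 4 control arrays did not detect the gene. Slc38a5, a transporter of glutamine and other neutral amino acids, read 5.33, 5.30, 5.57 and 5.82 on control and 6.23, 6.63, 5.97 and 6.27 on scoparia arrays, a difference of 0.77 ± 0.17 (adjusted p = 0.238). Vat1l, a little-studied oxidoreductase-like protein, lay at 0.98 ± 0.22, and Smyd4, a SET and MYND domain protein, at 0.78 ± 0.18. Neither overlapped between groups, and both lay below 0 in iWAT (-0.67 and -0.44).

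For 3 of these genes no control array gave a signal above background, so that only a lower bound of the fold can be stated: the scoparia mean against, on each control array, the higher of the probe's own value and the lowest value of any detected probe. Ms4a2 was at least 1.51-fold higher, Wee1 at least 1.32-fold and Ptk7, a Wnt co-receptor without kinase activity, at least 1.57-fold. Each was detected on 4 of 4 scoparia arrays. Sfrp2, a secreted modulator of Wnt signals made by adipose stromal cells, read 8.09, 7.27, 8.05 and 8.20 on control and 8.66, 9.26, 8.65 and 8.62 on scoparia arrays, a difference of 0.89 ± 0.39 (unadjusted p = 0.0348) that was 0.68 without control array 2. Tm4sf1, a membrane protein of endothelial and mesenchymal cells, lay at 0.94 ± 0.29, Slc10a6, a carrier of sulfated steroids, at 0.92 ± 0.26 and Id4, an inhibitor of DNA binding by helix-loop-helix factors, at 0.76 ± 0.21. Slc6a7, a proline transporter, stood at 0.88 ± 0.22 and Sytl3, which links Rab27 to secretory vesicles, at 0.84 ± 0.22, with detection on 2 and 1 of 4 control arrays. For the death receptor Tnfrsf10b (0.74 ± 0.20), 2 of the other 3 probes, both dimmer, had the opposite sign.

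Mast cell markers formed the list with the highest median. Mast cells are tissue-resident immune cells that carry the high-affinity IgE receptor and store histamine, serotonin and proteases in granules. All 14 of the 15 markers that had a probe were tested, all 14 lay above 0, 12 stood at an unadjusted p under 0.05 and higher (against 2.69% of all genes), and the median was 0.96 against 0.03 over all genes. These counts are a description, and no member passed an adjusted p of 0.05.

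Of the IgE receptor subunits, Ms4a2, the beta chain, read 4.71, 4.70, 4.97 and 4.58 on control and 5.51, 5.64, 5.97 and 5.16 on scoparia arrays (unadjusted p = 0.000237, adjusted p = 0.238). Since no control array detected it, its fold is the bound given above, at least 1.51, and the list median was 0.96 also with the gene at that bound. It alone among the 14 did not overlap between groups. Fcer1a, the alpha chain, read 8.09, 5.81, 9.72 and 8.82 on control and 9.09, 9.91, 9.82 and 9.31 on scoparia arrays (1.42 ± 0.55, unadjusted p = 0.0207, adjusted p = 0.704), with control array 3 inside the scoparia range. Fcer1g, the gamma chain, which macrophages also express, lay at 0.26 ± 0.26, and at -0.005 without control array 2.

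The granule proteases, which break down matrix and peptides once released, followed. Tpsab1, a tryptase, read 7.01, 6.21, 8.32 and 7.32 on control and 7.85, 8.77, 8.25 and 8.34 on scoparia arrays (1.09 ± 0.36, unadjusted p = 0.00729, adjusted p = 0.526). Cma1 and Mcpt4, chymases, lay at 0.95 ± 0.41 and 1.00 ± 0.43, the tryptase Tpsb2 at 0.97 ± 0.41 and Cpa3, a carboxypeptidase, at 1.09 ± 0.58. The second probe of Cma1 lay at 1.01, and the 2 others of Cpa3 at 0.65 and 0.99. In each of these genes control array 2 was the lowest of the 8 arrays and control array 3 lay within the scoparia range or above it.

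Genes of amine synthesis and storage stood alongside. Hdc, which makes histamine, lay at 1.15 ± 0.52, Tph1, which begins serotonin synthesis, at 0.70 ± 0.32, Slc18a2, which loads amines into granules, at 0.67 ± 0.24, and the serotonin transporter Slc6a4 at 0.79 ± 0.33. Gata2, a transcription factor of mast cells that endothelial and progenitor cells share, lay at 0.53 ± 0.18, and the receptor Mrgprb2 of connective tissue mast cells at 1.20 ± 0.47. Unadjusted p for these 6 ran from 0.00943 for Gata2 to 0.0432 for Tph1.

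Across the 14 markers, control array 2 was the lowest of the 8 arrays for 12. Control arrays 2 and 4 lay below all 4 scoparia arrays for 14 of 14 each and control array 1 for 13, but control array 3 for 1. The mean log2 level of the list was 7.93, 6.93, 8.96 and 8.06 on control and 8.50, 9.19, 9.07 and 8.74 on scoparia arrays, so that of the control arrays only array 3 exceeded any scoparia array. The summed intensity ran from 6849 to 23580 on control arrays and from 16050 to 24260 on scoparia arrays, and no marker was at 0. Without control array 2, 13 of 14 lay above 0, 3 stood at an unadjusted p under 0.05 (Ms4a2, Tpsab1 and Gata2; background 1.54%), and the median was 0.57. Without control array 3 the count was 13 (672 of all 11050 genes stood higher) and the median 1.34. Without scoparia arrays 2 and 3 in turn the count was 5 and 6. In iWAT, 12 of 14 lay above 0, 0 stood at an unadjusted p under 0.05 and higher (background 15.8%), and the median was 0.27. Over all genes in iWAT 5042 of 11050 lay above 0 and the median was -0.06.

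**Figure D3:**
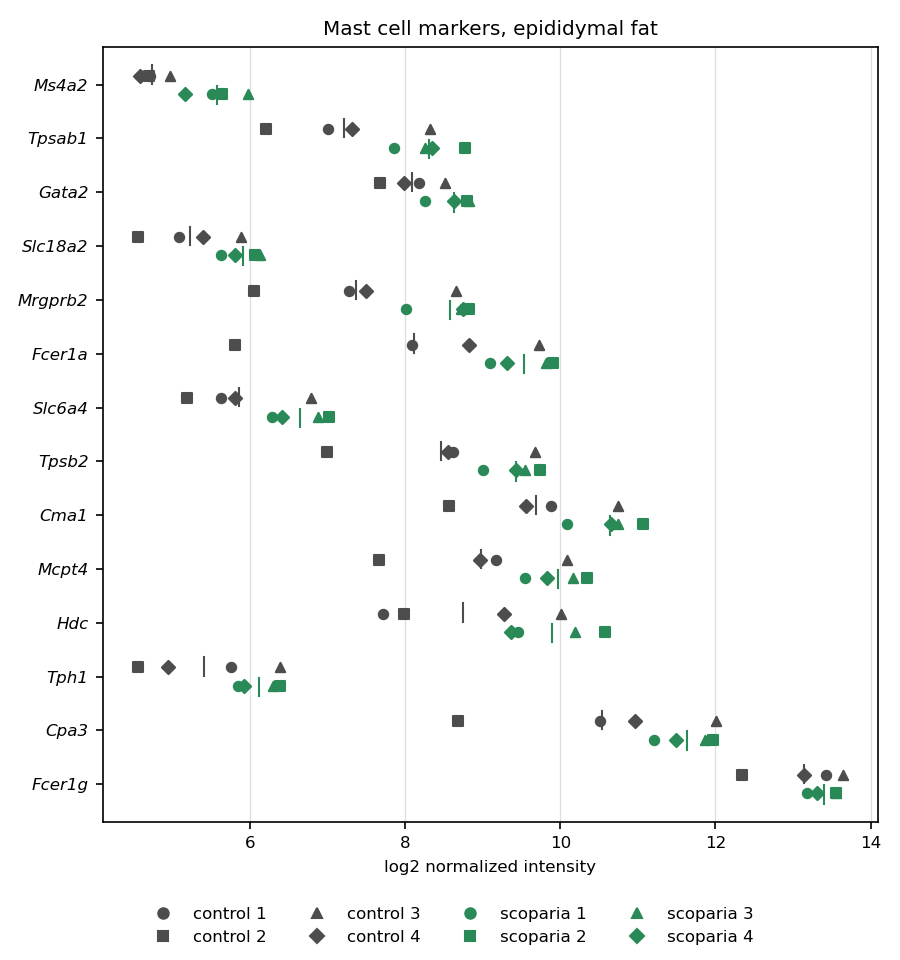
Log2 normalized intensity (x axis) of the 14 tested mast cell markers on the 4 control (grey) and 4 scoparia (green) eWAT arrays, ordered by p from the top; short vertical bars are group means. Control arrays 1, 2 and 4 lie below the scoparia arrays for 13, 14 and 14 markers, control array 3 for 1.

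Circadian clock genes made up the second list in which several members stood out. The clock is a loop in which Clock and Arntl activate the Per and Cry genes, whose products repress them, with output factors such as Dbp and Tef. The labels do not give the time of day of sampling. Of 20 genes 19 had a probe and 16 were tested: 10 lay above 0, 7 stood at an unadjusted p under 0.05 and higher (against 2.69% of all genes) and 1 lower (against 3.23%), and the median was 0.31 against 0.03 over all genes.

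Among the repressors, Per2 read 8.85, 9.28, 9.58 and 9.38 on control and 9.55, 10.21, 10.29 and 10.57 on scoparia arrays (0.88 ± 0.32, unadjusted p = 0.0148, adjusted p = 0.647). Per1 read 9.05, 9.90, 9.70 and 9.79 on control and 9.92, 10.28, 10.60 and 9.94 on scoparia arrays (0.57 ± 0.25, unadjusted p = 0.035). Per1 did not overlap between groups, by 0.02, and for Per2 scoparia array 1 lay just below control array 3. Ciart, a repressor of the Clock and Arntl pair, read 5.21, 5.57, 6.23 and 5.61 on control and 6.14, 6.43, 6.35 and 6.53 on scoparia arrays (0.71 ± 0.23, unadjusted p = 0.00738, adjusted p = 0.526). Bhlhe40, another repressor, lay at 0.60 ± 0.24. Both probes of Per1 and of Ciart and all 3 of Per2 lay above 0.

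Per3 stood on the other side. It read 5.99, 7.22, 5.22 and 5.92 on control and 5.70, 4.33, 4.72 and 4.40 on scoparia arrays (-1.30 ± 0.35, unadjusted p = 0.00182, adjusted p = 0.373), and it was detected on 4 control arrays and 1 scoparia array. Only scoparia array 1 lay above the lowest control. Arntl, the activator, lay at -0.24 ± 0.25, and at -0.53 without control array 2 (unadjusted p = 0.0161).

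Of the output genes, Dbp read 10.65, 11.16, 11.02 and 10.34 on control and 11.11, 11.49, 11.32 and 11.87 on scoparia arrays (0.66 ± 0.24, unadjusted p = 0.0163). Tef lay at 0.46 ± 0.21 (unadjusted p = 0.0413). Wee1, a kinase that delays entry into mitosis and is a clock output, read 4.70, 4.47, 4.72 and 4.58 on control arrays, where it was not above background, and 5.25, 5.55, 5.54 and 5.20 on scoparia arrays (unadjusted p = 0.000289, adjusted p = 0.238). Dbp overlapped by 1 array, since scoparia array 1 lay under control array 2, and Wee1 did not overlap. With Wee1 at its bound the list median was 0.29.

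Without control array 2 the list had 7 higher and 3 lower, with a median of 0.44. The median was 0.19 without control array 1, 0.22 without scoparia array 4, 0.14 without background correction and 0.08 for the 19 genes without a filter on dim probes. The count of higher genes ran from 3 (without scoparia array 4) to 7 as each eWAT array was left out, and it was 4 without control array 1 and 4 without scoparia array 2. In iWAT 11 of 16 lay above 0 (5042 of all 11050 genes did), and 5 stood higher and 1 lower, where the backgrounds were 15.8% and 17%. Per2 and Ciart lay at 1.04 and 0.71 there.

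**Figure D4:**
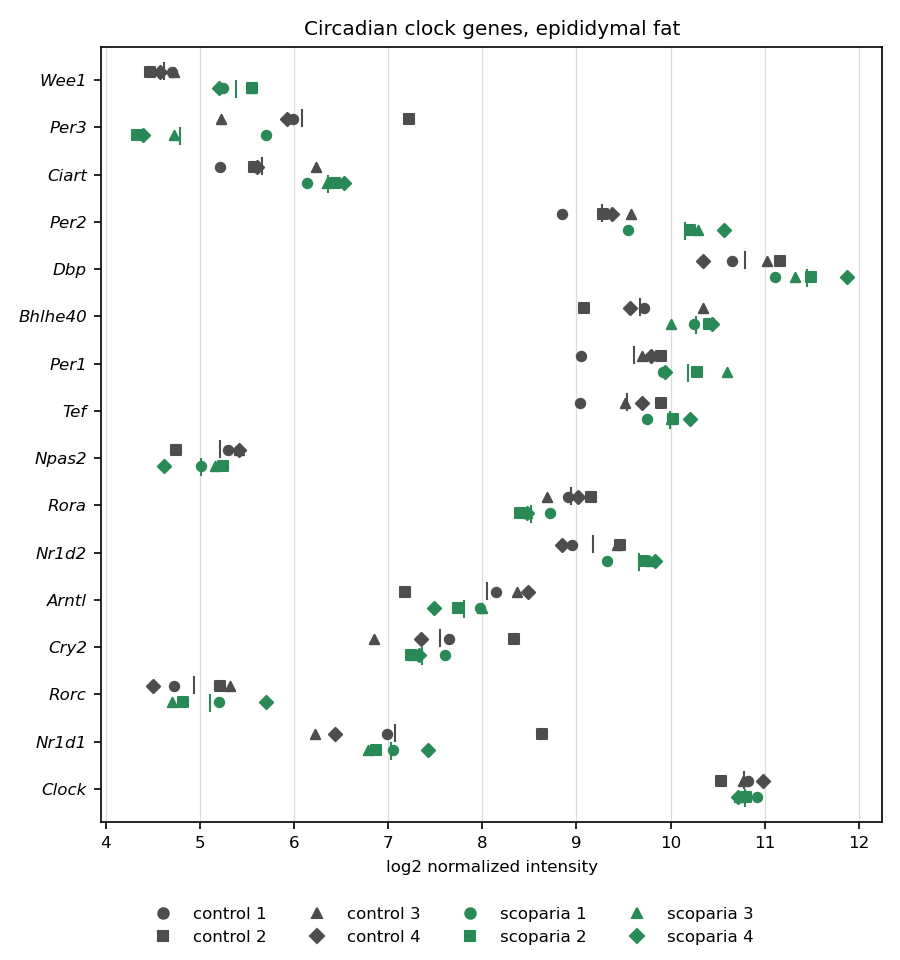
Log2 normalized intensity (x axis) of the 16 tested circadian clock genes on the 4 control (grey) and 4 scoparia (green) eWAT arrays, ordered by p from the top; short vertical bars are group means. Wee1, Ciart, Per2, Dbp, Bhlhe40, Per1 and Tef stand higher and Per3 stands lower at an unadjusted p under 0.05.

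Clock and Arntl bind the E-box CACGTG. This motif, which reads the same on both strands, was searched after the values had been seen. It was in 2349 of the 32851 promoters (7.15%) and in those of 5 of the 16 clock list genes with a promoter in the table (31.2%). The first share is of promoters and the second of genes, some with several promoters, counted if any held it. Of the 12 tested ones 3 held it: Ciart, with 3 matches, Per1 in 1 of its 2 promoters, and Tef. The windows of Ciart, at chr3:95882179-95882478 (minus strand), and Per1, at chr11:69098699-69098998 (plus strand), are shown because these repressors had higher values. Capitals mark the E-boxes.
Ciart: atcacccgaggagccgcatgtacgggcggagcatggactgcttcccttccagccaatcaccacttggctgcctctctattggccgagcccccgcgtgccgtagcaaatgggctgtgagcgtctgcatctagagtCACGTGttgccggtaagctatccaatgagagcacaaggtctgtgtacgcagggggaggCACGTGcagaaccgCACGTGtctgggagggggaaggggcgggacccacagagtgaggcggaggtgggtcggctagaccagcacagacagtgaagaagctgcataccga
Per1: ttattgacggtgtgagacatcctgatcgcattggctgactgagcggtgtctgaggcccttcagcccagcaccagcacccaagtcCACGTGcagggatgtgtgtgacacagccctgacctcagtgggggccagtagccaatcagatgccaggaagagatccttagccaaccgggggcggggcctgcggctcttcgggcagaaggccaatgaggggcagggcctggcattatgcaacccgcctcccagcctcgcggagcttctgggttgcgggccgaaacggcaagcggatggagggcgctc
The windows of Dbp and Per3, with differences of 0.66 and -1.30, held no match.

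Glucocorticoid target genes, which follow the daily adrenal hormone as well as stress, had a median of 0.36. Of 12 tested, 9 lay above 0, 2 stood at an unadjusted p under 0.05 and higher (Tsc22d3 and Per1, the latter shared with the clock list; 2.69% of all genes) and 1 lower (3.23% of all genes). Tsc22d3, an anti-inflammatory leucine zipper protein, read 12.31, 12.56, 12.78 and 12.67 on control and 12.89, 13.26, 13.07 and 12.84 on scoparia arrays (0.43 ± 0.16, unadjusted p = 0.014), without overlap, though its other probe had the opposite sign. The lower gene was the receptor itself, Nr3c1 (-0.59 ± 0.23, unadjusted p = 0.0216). Fkbp5, a co-chaperone of that receptor, lay at 0.58 ± 0.28, the phosphatase Dusp1 at 0.45 ± 0.22 and the kinase Sgk1 at 0.62 ± 0.30, each just short of an unadjusted p of 0.05 in the 16-array fit. In the fit of the 8 eWAT arrays alone 5 of the 12 were below it and higher, against 4.41% of all genes. Leaving out 1 array moved the count of 2 to between 0 (without control array 1) and 5 (without scoparia array 1), with 1 without scoparia array 2 and 1 without scoparia array 3. In these fits 186, 312, 177 and 196 of all 11050 genes stood higher, in the same order. Hypoxia response genes had 11 of 16 above 0 and a median of 0.21, with Ddit4, an inhibitor of mTORC1 (0.72 ± 0.27), and Ankrd37 (0.94 ± 0.41) at an unadjusted p under 0.05 (2.69% of all genes stood higher). That count was 0 without scoparia array 1 and 1 without control array 1, 2 or scoparia array 2. It was 4 without control array 3 or 4, where 672 and 395 of all 11050 genes stood higher. The median was 0.12 without control array 1, 0.12 without scoparia array 4 and 0.12 without background correction.

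Insulin signalling and triglyceride synthesis had medians below 0. Of 22 tested insulin signalling genes 6 lay above 0, 4 stood at an unadjusted p under 0.05 and lower (against 3.23%) and 0 higher, with a median of -0.22. They include Pdpk1, given above, and Irs2, an insulin receptor substrate. Irs2 read 7.78, 8.85, 7.16 and 7.65 on control and 7.60, 5.91, 5.93 and 6.94 on scoparia arrays (-1.26 ± 0.40, unadjusted p = 0.0058, adjusted p = 0.511). Its groups overlapped, since scoparia array 1 lay among the controls. Slc2a4, the insulin-responsive glucose transporter, lay at -0.59 ± 0.41. Without control array 2 the list had a median of -0.04, with 3 lower. The median was -0.11 without background correction, and 7 stood lower in the fit of the 8 eWAT arrays (against 4.77% of all genes).

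Of 15 tested triglyceride synthesis genes 1 lay above 0, 3 stood at an unadjusted p under 0.05 and lower (against 3.23% of all genes), and the median was -0.32. Agpat1, which adds the second fatty acid to glycerol phosphate, read 7.58, 8.29, 6.22 and 6.61 on control and 6.07, 5.80, 6.05 and 6.09 on scoparia arrays (-1.17 ± 0.36, unadjusted p = 0.00533, adjusted p = 0.502). Lpin2, a phosphatidate phosphatase, lay at -0.67 ± 0.24 and Gpam, which adds the first fatty acid, at -0.60 ± 0.24. For Agpat1 the gap between groups was 0.13, and control arrays 1 and 2 carried most of the distance. Without control array 2 the list median was -0.01, with 6 of 15 above 0 and 2 lower. Without control array 3 it was -0.61 with 6 lower (561 of all 11050 genes stood lower), and 1 stood lower without scoparia array 3. The median was -0.18 with median scaling, -0.20 without background correction and -0.16 without a filter on dim probes. Adipocyte identity genes gave 7 of 25 above 0 and a median of -0.12, which was 0.03 without control array 2 and -0.31 without control array 3. Their summed intensity was 158800 to 258500 on control arrays, the highest on array 2, and 165500 to 207800 on scoparia arrays. Cavin1, a caveolar coat protein from the adipocyte expansion list, stood apart in size (-2.13 ± 0.67, unadjusted p = 0.00549). It read 7.85, 8.67, 5.09 and 6.55 on control and 5.79, 4.65, 4.84 and 4.35 on scoparia arrays, where it was detected on 1 of 4.

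Macrophage lists moved with control arrays 2 and 3. Lipid-associated macrophages line dying adipocytes in obesity and express Trem2, Spp1 and lysosomal genes. Of 19 markers tested 14 lay above 0, 0 stood at an unadjusted p under 0.05, and the median was 0.31. Trem2 read 12.18, 9.57, 12.77 and 12.09 on control and 12.13, 12.63, 12.53 and 12.40 on scoparia arrays (0.77 ± 0.54). The 4 scoparia values lay inside the range of the other 3 controls, and without control array 2 the difference was 0.08. Spp1, osteopontin, went from 1.00 ± 0.71 to 0.15 in the same way, and the list median to 0.06. Without control array 3 the list median was 0.51, and 6 of 19 stood at an unadjusted p under 0.05 and higher. In that fit 672 of all 11050 genes stood higher, against 297 with all arrays. The general macrophage list had 11 of 19 above 0 and a median of 0.05, which was -0.14 without control array 2 and 0.18 without control array 3. Proliferation genes had 16 of 18 above 0 and a median of 0.18, which was -0.03 without control array 2. Control array 2 was the lowest of the 8 arrays for 16 of 19 lipid-associated macrophage markers, 12 of 19 macrophage markers and 16 of 18 proliferation genes. Inflammatory cytokine and chemokine genes had 12 of 23 above 0 and a median of 0.03. Without control array 2, the lowest of the 8 arrays for 18 of them, 4 of 23 lay above 0 and the median was -0.24. Il1b, the cytokine interleukin 1 beta, was the only 1 of 23 inflammatory genes at an unadjusted p under 0.05, against 5.92% of all genes. It read 6.22, 6.93, 7.34 and 7.35 on control and 6.07, 6.06, 6.01 and 6.12 on scoparia arrays (-0.90 ± 0.30, unadjusted p = 0.00934, adjusted p = 0.568), without overlap and with a gap of 0.10 to control array 1.

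Mesothelial markers split the scoparia arrays. Of 13 tested 12 lay above 0, 4 stood at an unadjusted p under 0.05 and higher (against 2.69% of all genes), and the median was 0.16. The median was 0.36 without control array 2, 0.33 without scoparia array 1, 0.33 without scoparia array 3 and 0.02 without scoparia array 4, and 2 stood higher without scoparia array 2 or 4 and in the fit of the 8 eWAT arrays. Upk1b, a uroplakin of the mesothelial surface, read 9.0, 8.99, 9.78 and 9.16 on control and 9.48, 10.33, 9.70 and 10.43 on scoparia arrays (0.75 ± 0.22, unadjusted p = 0.00336, adjusted p = 0.423). Krt18, a keratin, read 5.02, 5.10, 5.06 and 4.81 on control and 4.89, 6.29, 5.21 and 6.33 on scoparia arrays (0.68 ± 0.26). In both, scoparia arrays 2 and 4 were high and scoparia arrays 1 and 3 lay within or near the controls, and the other keratin of the pair, Krt8, read 6.56, 8.12, 6.86 and 8.05 on scoparia arrays. Gpm6a, with the largest difference of the list (1.09 ± 0.38, unadjusted p = 0.0106), split less clearly. It read 7.51, 6.87, 8.35 and 7.98 on control and 8.23, 9.04, 8.52 and 9.27 on scoparia arrays, of which array 3 also lay above every control. The summed intensity of the list was 3987 to 5551 on control arrays and 4293, 6178, 4668 and 7021 on scoparia arrays 1 to 4.

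Genes that control messenger RNA stood on both sides. Of 18 tested genes of mRNA decay and P-bodies 9 lay above 0, 4 stood at an unadjusted p under 0.05 and lower (against 3.23% of all genes), and the median was 0.02. The count was 2 without control array 1 or 2 or scoparia array 2 or 4. Ddx6, the helicase that couples translational repression to decapping, read 7.82, 8.18, 7.12 and 7.80 on control and 7.19, 6.38, 6.25 and 6.28 on scoparia arrays (-1.20 ± 0.23, unadjusted p = 8.02e-05, adjusted p = 0.22), and its other probes gave -0.82 and -1.09. Control array 3 lay below scoparia array 1, and without either array Ddx6 passed an adjusted p of 0.05 (0.041 and 0.0193). Ago2, the slicing Argonaute of microRNA complexes, lay at -0.84 ± 0.22 without overlap, Cnot3 of the deadenylase at -0.53 ± 0.21 and the GW182 protein Tnrc6b at -0.47 ± 0.19. Among 23 translation initiation genes 11 lay above 0, the median was -0.03 (0.09 with median scaling), and 3 stood lower (against 3.23% of all genes). These were Eif4b, Eif4g1 (-0.66 ± 0.29) and Eif4ebp2, an inhibitor of cap-dependent initiation (-1.70 ± 0.40). Of 26 tested genes of vesicle coats and secretory transport 15 lay above 0, and the median was 0.01 (0.16 with median scaling). Of these 0 stood lower and 2 higher (against 2.69% of all genes), the coatomer subunit Copb1 (0.74 ± 0.31) and the translocon partner Sec62 (0.65 ± 0.30). Neither stood there without control array 2. Among 18 amino acid transporters Slc38a5 and Slc7a2 (0.39 ± 0.18) stood higher and the glutamine importer Slc1a5 lower (-1.62 ± 0.53, and -1.08 without control array 2). Of all genes 2.69% stood higher and 3.23% lower.

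**Figure D5:**
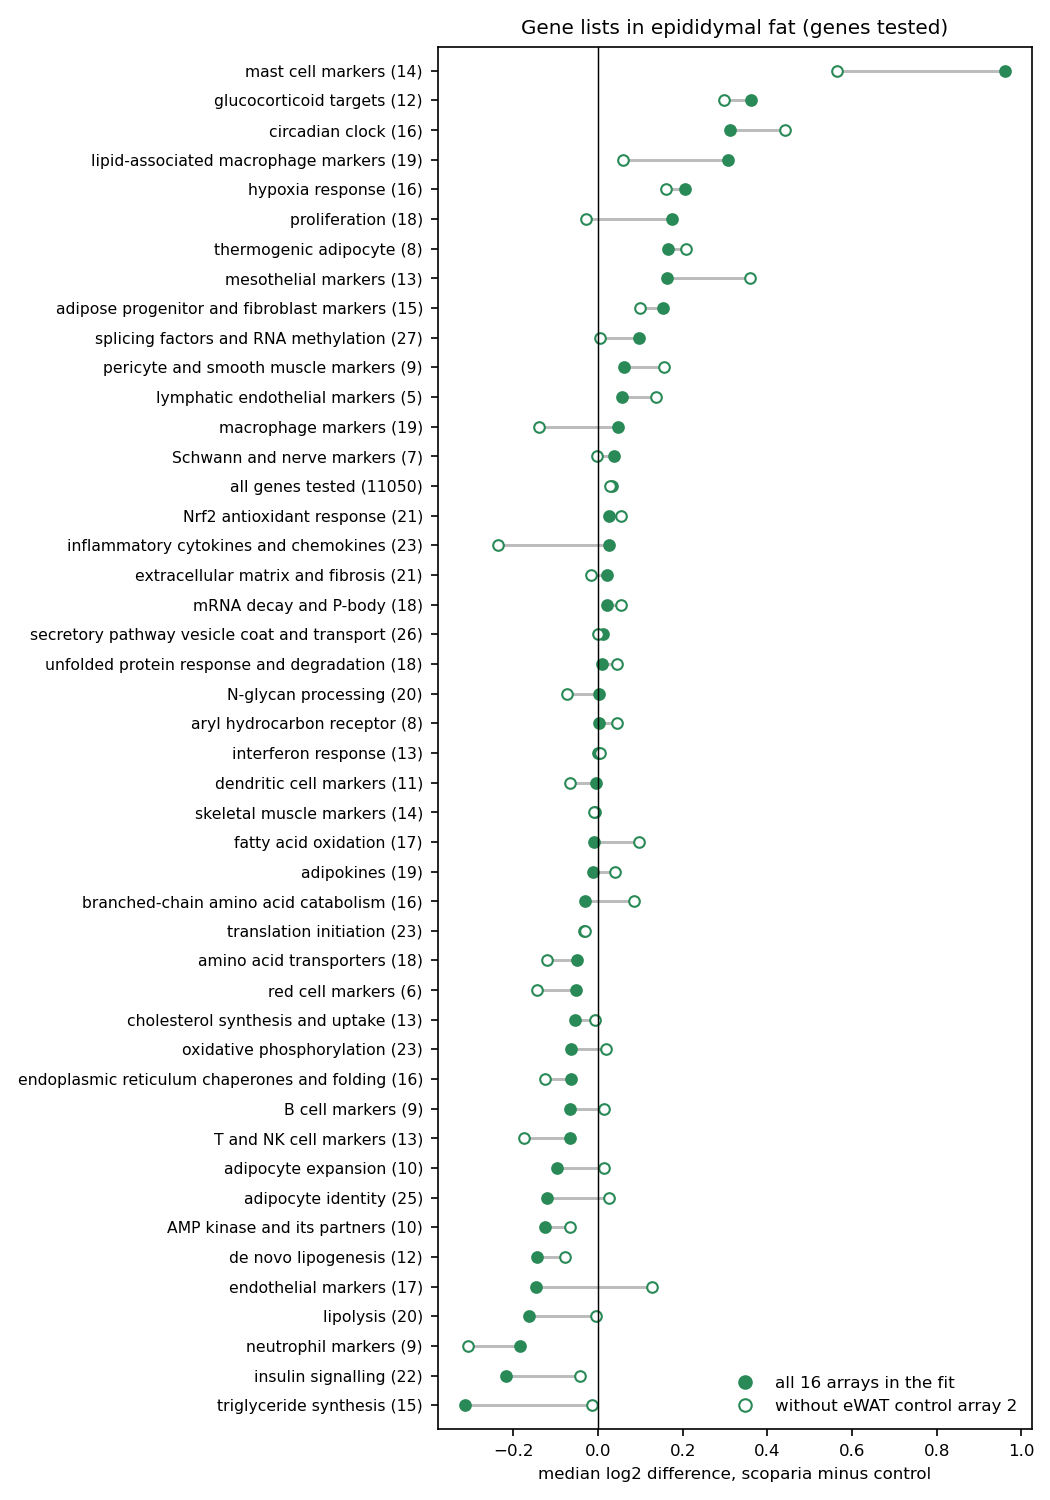
Median log2 difference, scoparia minus control (x axis), of each gene list with at least 5 tested members in eWAT and of all 11050 genes (number tested in brackets), with all arrays (filled) and without eWAT control array 2 (open). Mast cell markers have the highest median with and without it (0.96 and 0.57), whereas triglyceride synthesis, proliferation and lipid-associated macrophage markers move to near 0.

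Whether the diet difference in eWAT differed from that in iWAT was tested as the difference of both in the same fit. Of 11050 genes 6 passed an adjusted p of 0.05 (0.0543%), and 1793 stood at an unadjusted p under 0.05 (16.2%). Reep3, which lay at -1.25 in eWAT, lay at 0.82 in iWAT, a difference of -2.07 ± 0.35 (adjusted p = 0.0407). Bbx lay at -0.89 and 1.13 (difference -2.02 ± 0.30, adjusted p = 0.0273), Larp4b, a regulator of mRNA stability, at -0.87 and 1.07 (-1.94 ± 0.33), and the deubiquitinase Mindy2 at -0.94 and 1.30 (-2.23 ± 0.37). The clone gene 2410005O16RIK lay at -0.82 and 0.76 (-1.58 ± 0.20, adjusted p = 0.00789). The homeobox gene Gsc went the other way, with 0.52 in eWAT and -1.37 in iWAT (1.90 ± 0.30, adjusted p = 0.0407). These calls depended on how the shared animal was handled and on single arrays. With the animal as a random block 48 genes passed, the 6 among them, but the fixed animal block, which was added once the data had been seen, left no gene (0 genes, smallest adjusted p = 0.134; unadjusted p of the 6 from 2.23e-05 to 0.00045). Leaving out 1 array in turn, 1 gene passed for 12 of the 16 arrays. In eWAT the count was 7 when control array 4, 18 when control array 3 and 39 when scoparia array 1 was left out, and it was 428 when iWAT control array 3 was.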

How the data were processed

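Total RNA from eWAT and iWAT was hybridised to Illumina mouse bead arrays, 16 in all. The deposited scanner table holds, per the file headers, detection p-values and mean bead intensities of 25697 probes, without background correction. A second deposited table holds intensities normalized by the authors, with 25% of values at or below 0, and the series value table is identical to it. GenomeStudio and limma 3.18.13 are named in the submitters' processing notes, without roles and without a genome build. Precision is limited by the number of arrays.

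Scanner intensities were background-corrected from the detection p-values, given an offset of 16, quantile normalized and put on the log2 scale with neqc of limma 3.58.1 in R 4.3.3. The 15052 probes detected (p-value under 0.05) by 4 or more of the 16 arrays were used, and each of 11050 genes took its brightest such probe. Genes were tested with lmFit and eBayes on 4 group means (12 residual degrees of freedom), two-sided, with Benjamini-Hochberg adjustment. The procedure was tested on simulated data. Names came from the deposited table, brought to current symbols with RefSeq of GRCm38.p6 (20736 probes current, 3872 by synonym, 985 without a match), which also gave the promoters.

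The genes named are the 12 with the smallest p and the 6 with the largest difference in each direction among genes whose groups do not overlap, without clone names, up to 4 members of each gene list by p, a list of genes of interest, and those past the threshold for the depot difference. Further mast cell and clock genes, Fcer1g, Spp1, Krt8, Fkbp5, Dusp1 and Sgk1, and 2410005O16RIK in the diet comparison were chosen after their values were seen. The members and lists were chosen with earlier results of these data known. Same-numbered control and scoparia arrays are of different animals and their deviations did not move together (correlations of 0.131, -0.248, 0.312 and -0.210), so they were not paired. eWAT and iWAT arrays share animal numbers in their names, with correlations from -0.207 to 0.315 and a consensus of 0.0615. Some genes are not reported here. Alternatives were other scalings, background settings, filters, probe rules, array weights, a trended and robust fit, blocks, the eWAT arrays alone and each array left out.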

Additional observations from a re-analysis of the deposited data

Results flagged for a closer look

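In 14 of 318 sets of 4 arrays (4.4%; chance gives about 1 in 20), 1 array lay far from the other 3, 5 times in control and 9 times in scoparia. Scoparia array 1 stood high for Ddx6 at 7.19 (others 6.25 to 6.38) and low for Mrgprb2 at 8.01 (others 8.72 to 8.82). Scoparia array 2 stood low for Agpat1 at 5.80 (others 6.05 to 6.09) and high for Sfrp2 at 9.26 (others 8.62 to 8.66). Scoparia array 3 stood high for Tnrc6b at 5.07 (others 4.60 to 4.61), and scoparia array 4 for Tnfrsf10b at 9.86 (others 9.07 to 9.19). Among controls, array 1 stood high for Calr at 10.17 (others 9.73 to 9.81), array 2 low for Sfrp2 at 7.27 (others 8.05 to 8.20), and array 3 low for Insig1, which retains the sterol sensor in the ER, at 9.68 (others 11.43 to 11.74).

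The same was found for the mean log2 level of 5 gene lists. Control array 2 was low for inflammatory genes at 7.71 (others 8.79 to 8.84) and for proliferation genes at 7.19 (others 8.11 to 8.16). Scoparia array 1 was high for Nrf2 antioxidant genes at 10.39 (others 10.14 to 10.16) and low for dendritic cell markers at 8.91 (others 9.20 to 9.25). Scoparia array 4 was low for hypoxia response genes at 8.09 (others 8.19 to 8.20).

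The scoparia minus control difference in eWAT minus that in iWAT passed limma's test for 6 genes. It was -1.58 for 2410005O16RIK, -2.02 (-2.015) for Bbx, 1.90 for Gsc, -1.94 for Larp4b, -2.23 for Mindy2 and -2.07 for Reep3, and none of the 6 passed with the animal as a fixed block.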

How the results depend on the processing

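The count of eWAT genes past an adjusted p of 0.05 was 0 in all alternatives but 3: 147 with array weights (49 higher, 98 lower), 3 without eWAT control array 3 (Ddx6, Enpp4 and Zc3h13) and 14 without eWAT scoparia array 1. It ranged from 0 to 14 as eWAT arrays were left out in turn. The count at an unadjusted p under 0.05, 654 in the 16-array fit, was 1650 with array weights and 1014 with the 8 eWAT arrays alone. Leaving out 1 eWAT array from the 16-array fit gave from 393 (without control array 2) to 1233 (without control array 3), with 418 without scoparia array 2. The 8 eWAT arrays without control array 2 gave 854. The replicate number as a block among the 8 eWAT arrays gave 0 genes past the adjusted p and 899 at the unadjusted one, against 0 and 1014 without the replicate block. The numbers mark different mice.

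The depot difference, 6 genes, gave 17 genes with median scaling, 14 without background correction, 11 with an offset of 50, 3 without a filter on dim probes, 17 with the mean of all probes, 626 with array weights, 2 with a trended and robust fit, 48 with the animal as a random block and 0 with it as a fixed block, the last chosen after seeing the data. Leaving out 1 array gave from 1 to 428. The causes were not tested.

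Of 2568 values recomputed for 112 genes under 23 alternatives, 6 in 2 genes had the opposite sign. Most of the 112 genes were chosen for an unadjusted p under 0.05 in these same arrays, so few opposite signs could occur among them. The count therefore does not show how stable the sign is for other genes. The 2 genes, Hspa5 and Fcer1g, had an unadjusted limma p of 0.91 and 0.337 with all arrays. Hspa5 was at 0.041 with median scaling, 0.066 without control array 3, 0.035 without control array 4 and 0.022 without scoparia array 3, within a range from -0.158 to 0.066 as arrays were left out. Fcer1g was at -0.005 without control array 2, in both fits, and ranged up to 0.428. An adjusted p under 0.05 was reached by 59 of the values, in 49 genes. Of 1058 list medians 25 moved by over 1 SD, the mean of the SDs of the list's mean level within control and within scoparia. Control array 2 is part of that spread, and large moves without this array went uncounted. Among them were triglyceride synthesis (-0.32 to -0.01), lipid-associated macrophage markers (0.31 to 0.06) and mast cell markers (0.96 to 0.57). With 4 arrays a group, and a median SE of 0.231, small differences were not detectable, and for probes near background only a bound can be given.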

Other observations

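With all arrays in the fit, several other cell type and pathway lists lay near the median of all genes in eWAT (0.03). T and NK cell markers had 6 of 13 above 0 and a median of -0.07, and B cell markers 3 of 9 and -0.07. Dendritic cell markers had 5 of 11 above 0 and a median of -0.01. In each list 0 members stood at an unadjusted p under 0.05, against 5.92% of all genes. The filter on dim probes counted arrays of both depots, so a member could pass it without detection in eWAT. The B cell markers Ms4a1 and Cr2, both above 0, were detected on 0 of 4 control and 0 of 4 scoparia eWAT arrays. Interferon response genes had 7 of 13 above 0 and a median of 0.00 (0.001), oxidative phosphorylation genes 9 of 23 and -0.06, and fatty acid oxidation genes 8 of 17 and -0.01, again with 0 members at that p. Without control array 2 the medians were -0.17 for T and NK cell, 0.015 for B cell and -0.07 for dendritic cell markers. They were 0.005 for interferon response, 0.02 for oxidative phosphorylation (13 of 23 above 0) and 0.10 for fatty acid oxidation genes (12 of 17), against 0.03 over all genes. Neutrophil markers had 1 of 9 above 0 and a median of -0.18, which was -0.31 without control array 2. Of these Retnlg, a resistin-like protein, lay at -1.24 ± 0.53, and Cxcr2 was detected on 0 of 4 control and 0 of 4 scoparia eWAT arrays. Endothelial markers had a median of -0.15 with all arrays and 0.13 without control array 2, which was the highest of the 8 arrays for 12 of 17.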
